A study of Mus musculus with 3 samples.

Results

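Foxd3 is a forkhead transcription factor, a protein that holds DNA through a winged-helix domain. It is known for its part in pluripotent cells of the early embryo and in the neural crest, and the series asks how it acts on enhancers as mouse embryonic stem cells leave naive pluripotency. Enhancers are stretches of regulatory DNA that can lie far from the genes they act on, and several bound stretches can lie close together at 1 locus. The sites described here are the opposite case: positions where tagged Foxd3 was mapped through both of its epitope tags, with no other mapped region nearby. Merging all peaks of the HA and Flag lists that overlapped by at least 1 bp gave 5469 union regions, of which 2487 held at least 1 peak of each antibody. Of those, 1047 lay more than 100 kb, edge to edge, from the nearest other union region of any kind, and these are called isolated sites below. The other 1440 sites of both antibodies had a neighbour within 100 kb.

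The series has 3 samples, all from the FH-Foxd3 line of mouse embryonic stem cells. That line was made from LF2 cells, a mouse embryonic stem cell line, by lentiviral transduction with a Foxd3 that carries Flag and HA epitopes, followed by neomycin selection. Per the labels' protocols it grew without feeder cells in medium with 15% serum and LIF, a cytokine that keeps these cells undifferentiated, and per the series text the added protein was near the endogenous level. The groups are 1 immunoprecipitation with an anti-HA antibody (H3663), 1 with an anti-Flag antibody (F3165) and 1 input of total genomic DNA, which was not analysed here. All 3 samples carry the added Foxd3, and no precipitation from cells without it was analysed here. The files hold positions only, so neither the cell type nor the read depth could be checked against the data.

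The sites were chosen by the listed positions of the peaks: presence in both lists and distance to the next region. The shares of shared and of isolated regions are therefore a description of the choice and support nothing. Among all 5469 union regions 45.5% held both antibodies, and among the 2313 isolated ones the share was 45.3% (1047 regions, 95% Wilson interval 43.2 to 47.3). Among the 3156 regions with a neighbour within 100 kb it was 45.6% (1440 regions, 43.9 to 47.4). Likewise 42.3% of all union regions were isolated, against 42.1% of the sites of both antibodies (40.2 to 44.1), 41.8% of the 910 HA-only regions (38.6 to 45.0) and 42.8% of the 2072 Flag-only regions (40.6 to 44.9). These intervals, like all those below, cover counting error only. Regions of 1 library are not replicates, so no p-value is given for any comparison.

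The isolated sites took 1049 of the 3406 HA peaks (30.8%) and 1051 of the 4569 Flag peaks (23.0%). They covered 604 kb of HA and 595 kb of Flag peaks. In 1043 of the 1047 sites a single HA peak met a single Flag peak. The 4 exceptions lay at chr18:5011385-5012725 and chr5:93555368-93556569, with 2 HA and 2 Flag peaks each, and at chr19:11373418-11374524 and chr4:115230423-115231282, with 1 HA and 2 Flag peaks each (all positions are in build mm9). For these 4 the width of an antibody is that of its widest peak, and they have no centre distance. No mm9 genome or annotation was used here, so no site was assigned to a gene, exon, intron or UTR and no base sequence is printed.

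The isolated sites spanned a wide range of distances. Their nearest other region lay a median of 243 kb away, with quartiles of 156 and 456 kb. At 628 sites (60.0%) it was more than 200 kb away, at 228 (21.8%) more than 500 kb, at 72 (6.88%) more than 1000 kb and at 12 (1.15%) more than 2000 kb. Taking both sides together, the stretch between the flanking regions had a median length of 1005713 bp over the 1038 sites with a region on each side. The other 9 were the first or last region of their chromosome.

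**Figure D1:**
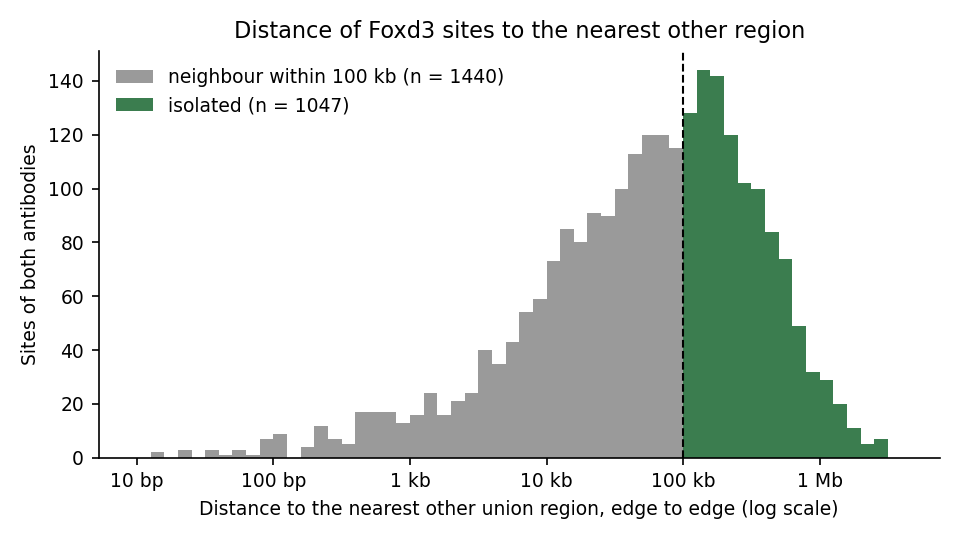
Number of sites of both antibodies (vertical axis) by edge-to-edge distance to the nearest other union region (horizontal axis, log scale), with 1440 sites that have a neighbour within 100 kb in grey and 1047 isolated sites in green. The dashed line is the 100 kb limit, which falls near the top of a single continuous distribution, and the isolated sites run up to 2902 kb.

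The site farthest from any other lay at chr13:28872325-28873006, 2902 kb from its nearest neighbour. Its HA peak was 450 bp wide and its Flag peak 581 bp. Next came chr16:69951798-69952409 at 2751 kb, with an HA peak of 496 bp under a Flag peak of 612 bp. Both HA widths were below the median of isolated sites and both Flag widths above it. At chrX:63031703-63032154 the nearest region was 2733 kb away and the HA peak was 452 bp wide and the Flag peak 295 bp. At chr1:30904471-30905038 the distance was 2707 kb and the widths were 458 and 532 bp. At chr17:53700683-53701452 it was 2679 kb and the widths were 702 and 743 bp. Of these 5 sites only the last exceeded the median width of isolated sites in HA, while 4 of the 5 exceeded it in Flag. The longest stretch between flanking regions surrounded chrX:34315429-34315903, a site named after its value was seen: the next region to its left was 10783 kb away and that to its right 1603 kb.

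The limit of 100 kb cut through a dense part of the distribution, so sites on either side of it were much alike in distance. Just inside were a pair of sites on chromosome 7, chr7:56603040-56603748 and chr7:56703895-56704549, each the other's nearest neighbour at 100.1 kb. Their HA widths were 709 and 537 bp and their Flag widths 621 and 575 bp. They were followed by chr15:84543029-84543490 (100.4 kb), chr8:27072974-27073858 (100.4 kb) and chr10:44811851-44812447 (100.8 kb). Just outside lay chr2:152497312-152497781, whose neighbour was 99999 bp away, and then chr13:12533034-12533610 (99.7 kb), chr15:12479026-12480532 (99.5 kb), chr13:99587810-99588346 (99.5 kb) and chr16:30641384-30642098 (99.2 kb). HA widths ranged from 370 to 885 bp in the first 5 and from 466 to 1507 bp in the second 5.

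Isolated did not always mean remote from all other binding. Within 1 Mb of its centre the median isolated site had 4 other union regions (quartiles 2 and 7), against 7 (5 and 11) for sites with a neighbour within 100 kb. The rule sets this order in part. The most crowded isolated site was chr14:65027021-65027849, chosen after its value was seen, with 26 other regions within 1 Mb and the closest of them 138 kb away. Its HA peak was 829 bp wide and its Flag peak 779 bp. At the other end, 72 isolated sites had no other region within 1 Mb.

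The regions nearest to isolated sites were of all kinds. The nearest was another site of both antibodies in 490 cases (46.8%, 43.8 to 49.8), a Flag-only region in 372 (35.5%, 32.7 to 38.5) and an HA-only region in 185 (17.7%, 15.5 to 20.1). Over all union regions 45.5% were of both antibodies. Flag-only regions made up 38.3% of isolated union regions and 37.6% of the others, and HA-only regions 16.4% and 16.8%. For isolated HA-only regions the nearest was a site of both antibodies in 44.5% (39.6 to 49.5), and for isolated Flag-only regions in 41.6% (38.4 to 44.9). The share at isolated sites of both antibodies was thus near the share of that kind in the lists. Flanks on both sides were of both antibodies at 219 of 1038 sites (21.1%), and no flank was at 302 (29.1%). The same shares were not computed over all union regions, so nothing about isolated sites is read from them.

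Some isolated sites followed each other without any other region between them. At 536 of 1038 sites (51.6%) at least 1 flanking region was itself an isolated site of both antibodies. Over all 5469 union regions 1047 were of this kind. That is a share of single regions, while the 51.6% counts sites where either of 2 flanks qualifies. The values are therefore not directly comparable. The rule favours such rows, because a region flanking an isolated site already has no other region within 100 kb on that side. Whether the rows exceed what the rule gives was not tested. The longest such rows held 6 sites: chr16:43573321-46501261 over 2.93 Mb, chr3:51053330-53454549 over 2.40 Mb and chr9:31126564-32223014 over 1.10 Mb. HA widths ranged from 349 to 780 bp in the first, from 311 to 751 bp in the second and from 313 to 920 bp in the third. The Flag widths ranged from 345 to 618 bp, from 388 to 912 bp and from 379 to 838 bp in the same order. Other rows were more even, such as the 4 sites of chr1:191585197-193754998, with HA widths of 491 to 770 bp and Flag widths of 630 to 687 bp, a row named after its values were seen.

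At most isolated sites the listed peaks were short and similar in width with both antibodies. The HA peak had a median width of 528 bp (quartiles 422.5 and 672 bp, lowest 204, highest 1774) and the Flag peak 522 bp (409 and 664 bp, lowest 197, highest 1848). Both widths lay between 300 and 1000 bp at 907 of the 1047 sites (86.6%, 84.4 to 88.6). Only 15 sites exceeded 1000 bp with both antibodies. For the 1043 single pairs HA was the wider at 549 (52.6%, 49.6 to 55.7) and Flag at 492, and the widths were within 1.5-fold of each other at 926 (88.8%, 86.7 to 90.6). Across the 1047 sites the widths of the antibodies were correlated (Spearman rho = 0.68, Pearson r = 0.66). At sites with a neighbour within 100 kb these shares were lower. Their widths were within 1.5-fold at 81.1% of single pairs (78.95 to 83.0). Both widths lay between 300 and 1000 bp at 77.4% of those sites (75.2 to 79.5). The Spearman rho of their widths was 0.65 and the Pearson r 0.58. These are descriptions across sites, which share the same libraries and chromatin source.

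**Figure D2:**
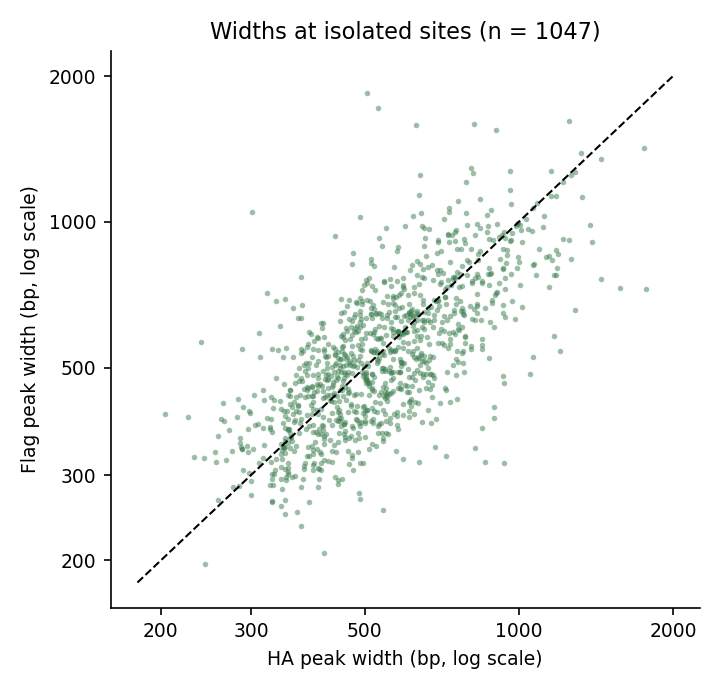
HA peak width (horizontal axis) against Flag peak width (vertical axis) in bp on log scales, 1 point for each of the 1047 isolated sites, with the dashed line at equal widths. The points spread along the line on both sides of it, mostly between 300 and 1000 bp, and a few sites above and below are far wider with 1 antibody.

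The 10 isolated sites with the best mean width rank over both lists each lay on a different chromosome. The first of them was chr1:63487859-63489612, where the HA peak measured 1754 bp and the Flag peak 1418 bp. Next was chr17:10624534-10626123, with 1447 bp for HA and 1351 bp for Flag. The third, chr18:85103106-85104718, had its 1254 bp HA peak inside a Flag peak of 1613 bp, and its nearest region was 270 kb away. In these 3 the antibody with the wider peak was not always the same. At chr5:44373474-44374866 the HA peak was 1321 bp and the Flag peak 1388 bp wide. At chr11:6794434-6795871 they were 1289 and 1267 bp, and its nearest region was 405 kb away. At chr13:5802833-5804118 they were 1266 and 1247 bp. In each of these 3 sites the antibodies gave nearly equal widths. The remaining 4 were chrX:7005807-7007136 (1330 bp in HA, 1127 bp in Flag), chr9:113367605-113368881 (1221 and 1210 bp), chr14:115604925-115606198 (1155 and 1274 bp) and chr8:108146351-108147535 (1180 and 1130 bp). Among the 10, the site on chromosome 14 was the most remote, at 961 kb from its nearest region, and the site on chromosome 13 the least, at 101 kb.

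The widest peak of each antibody was far wider than the other antibody's peak at the same site. The widest HA peak of an isolated site, 1774 bp, lay at chr14:78687635-78689408, where the Flag peak was 725 bp wide and lay inside it. The widest Flag peak, 1848 bp, lay at chr1:158598432-158600279, where the HA peak measured 505 bp and lay inside it. That Flag peak of 725 bp was above the upper quartile of isolated sites (664 bp), while the HA peak of 505 bp was below their median (528 bp). The narrowest HA peak was 204 bp wide, at chr5:35341445-35341846, under a Flag peak of 402 bp. The narrowest Flag peak was 197 bp wide, at chr19:12238784-12239029, beside an HA peak of 244 bp. That last site was thus narrow with both antibodies.

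Isolated sites were narrower than sites of both antibodies with a neighbour within 100 kb. In HA the medians were 528 bp (95% binomial order-statistic interval 515 to 543) and 604.5 bp (584 to 619), a difference of -76.5 bp. In Flag they were 522 bp (506 to 536) and 576 bp (559 to 602), a difference of -54 bp. In each antibody the intervals of the medians did not overlap, while the quartiles of the sites overlapped widely. These intervals cover counting error over sites of the same library, which are not replicates. Their separation is therefore not a test of the difference. Wide peaks were the more unequal part: HA peaks over 1000 bp made up 4.78% of isolated sites (3.64 to 6.24) and 11.1% of the others (9.59 to 12.8), and Flag peaks over 1000 bp 3.82% (2.82 to 5.16) and 12.6% (10.96 to 14.4). Peaks under 300 bp were about as frequent in both sets, at 3.25% and 2.43% in HA and 3.34% and 3.13% in Flag.

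The narrowing was not limited to sites of both antibodies. HA-only regions had a median HA width of 465 bp when isolated (446 to 482) and 523 bp with a neighbour within 100 kb (500 to 550). Flag-only regions had a median Flag width of 382 bp when isolated (371 to 391) and 430.5 bp otherwise (419 to 447). The differences pointed the same way in all 3 kinds of region, and whether they differ in size was not tested.

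Most of the change in width came below the 100 kb limit. Sites of both antibodies with a neighbour within 10 kb had a median HA width of 640 bp and a median Flag width of 644 bp (453 sites). The medians were 599 and 573.5 bp at 10 to 50 kb (630 sites) and 558 and 537 bp at 50 to 100 kb (357 sites). Among isolated sites they were 532 and 529 bp at 100 to 200 kb (419 sites), 528.5 and 519 bp at 200 to 500 kb (400 sites), 513 and 505.5 bp at 500 to 1000 kb (156 sites) and 508 and 506 bp beyond 1000 kb (72 sites). Within the isolated sites distance and width were hardly related, with a Spearman rho of -0.05 in HA and -0.06 in Flag over 1047 sites.

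**Figure D3:**
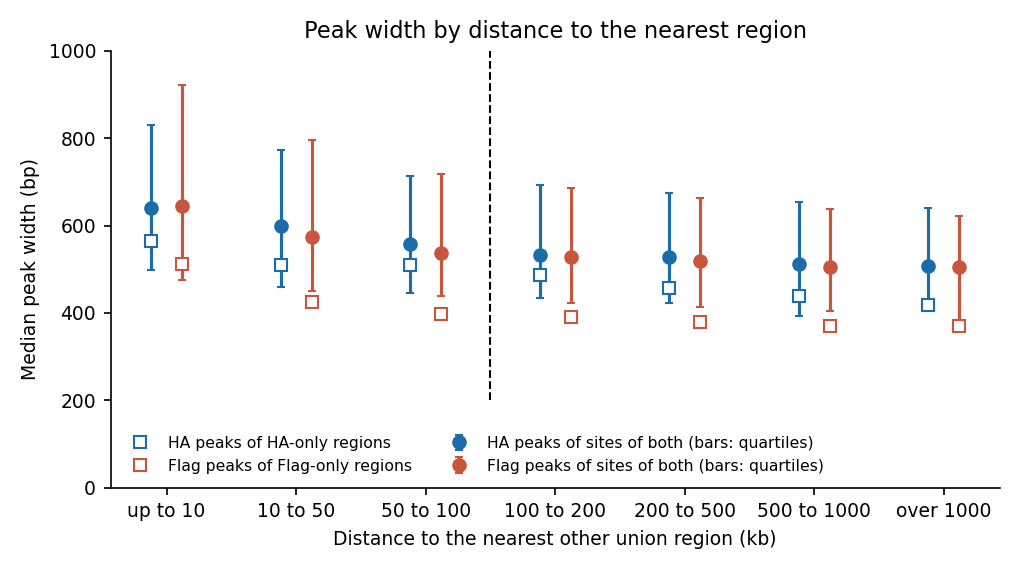
Median peak width in bp (vertical axis) by distance to the nearest other union region in kb (horizontal axis), for HA (blue) and Flag (red), with filled circles and quartile bars for sites of both antibodies and open squares for regions of 1 antibody. Right of the dashed 100 kb line are the isolated regions, where the medians of sites of both antibodies run only from 532 to 508 bp in HA and from 529 to 505.5 bp in Flag.

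The rule keeps only sites where an HA and a Flag peak overlap, which itself limits how far apart their centres can lie, so the positions within a site are given as a description. In the 1043 single pairs the centres of the HA and Flag peaks were a median of 44.5 bp apart (interval 41 to 49), with quartiles of 20.5 and 80 bp. They were within 50 bp at 565 sites (54.2%, 51.1 to 57.2) and within 100 bp at 859 (82.4%, 79.9 to 84.6). The HA centre lay left of the Flag centre at 546 sites (52.3%, 49.3 to 55.4) and right of it at 494, with a median signed offset of -4 bp. In 524 pairs (50.2%) 1 peak lay inside the other, and no pair had identical ends. The overlap of both peaks made up a median of 77.5% of the union site.

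At 3 isolated sites the centres coincided exactly: chr16:69951798-69952409, chr9:31246355-31247274 and chrX:130208182-130208883. The first of these was also the second most remote of all isolated sites. The largest centre distance, 644.5 bp, belonged to chr1:158598432-158600279, the site with the widest Flag peak. There the overlap covered 27.3% of the union site. Centres over 200 bp apart were found at 44 sites (4.22%, 3.16 to 5.62).

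Sites with a neighbour within 100 kb had a median centre distance of 56 bp (interval 51.5 to 59), and 71.9% of them (69.5 to 74.2) were within 100 bp. The difference in medians was -11.5 bp. Centre distance rose with the width of the union site, and at matched widths of the union site the medians of isolated and other sites differed in either direction. They were 28 and 29 bp for sites up to 500 bp wide (295 and 266 sites), 44.5 and 38.8 bp for 500 to 600 bp (223 and 240 sites) and 51 and 56 bp for 600 to 750 bp (243 and 324 sites). For 750 to 1000 bp they were 68 and 79.5 bp (195 and 330 sites), and over 1000 bp they were 155.5 and 149 bp (87 and 271 sites). Isolated sites had the smaller median in 3 of these 5 classes. Where neither peak lies inside the other, the width of the union site itself grows with the centre distance. The rise over the classes and the match within them are thus partly set by construction. Whether width accounts for the difference in medians was not tested.

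**Figure D4:**
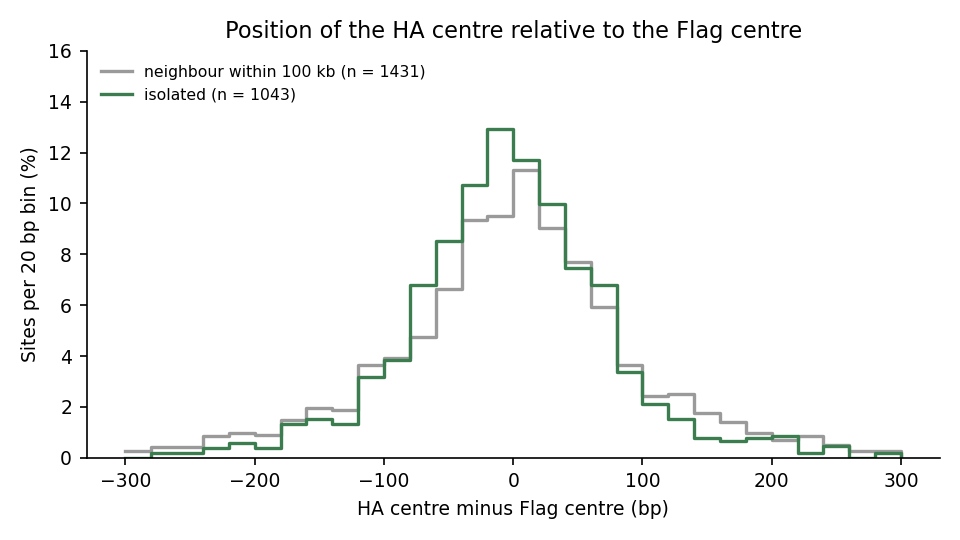
Position of the HA peak centre relative to the Flag peak centre in bp (horizontal axis) as the percentage of sites in each 20 bp bin (vertical axis), for 1043 isolated sites (green) and 1431 sites with a neighbour within 100 kb (grey). Both outlines are centred near 0 and the green one is the narrower; 12 isolated and 54 other sites lie beyond the 300 bp drawn on either side.

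Chromosomes differed in how many of their sites were isolated. On chromosome 16, 44 of 74 sites of both antibodies were isolated (59.5%, 48.1 to 69.9), and on chromosome 17, 48 of 95 (50.5%, 40.6 to 60.4). On chromosome 8 it was 57 of 179 (31.8%, 25.5 to 39.0), and on chromosome 15, 29 of 84 (34.5%, 25.2 to 45.2). The density of regions enters the rule: chromosome 8 had 3.10 union regions per Mb up to its last peak and chromosome 16 had 1.69. The shares did not follow density throughout. Chromosome X had the fewest regions per Mb (1.23) and 42.1% isolated. Chromosomes 15 and 17 differed in share at 2.06 and 2.18 regions per Mb, though their intervals overlapped. The dense chromosomes 11 and 14 (3.02 and 2.78 regions per Mb) had low shares, at 36.3% and 38.4%. Per Mb, isolated sites were most frequent on chromosome 19 (0.602) and least on chromosome 15 (0.281).

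Widths were compared within chromosomes as well. Isolated sites had the smaller median HA width on 17 of 20 chromosomes and the smaller median Flag width on 14, and both were smaller on 13. Chromosome 14 showed the widest gap, with HA medians of 509 bp for 61 isolated and 685 bp for 98 other sites and Flag medians of 510 and 731 bp. On chromosome 8 the isolated sites were wide themselves. Their median HA width of 679 bp (57 sites) was the highest of the 20 chromosomes and close to the 673.5 bp of the other sites there, and their median Flag width of 608 bp was also the highest. Elsewhere the HA medians of isolated sites ran from 490 bp on chromosome 15 to 575.5 bp on chromosome 19. The high medians of chromosome 14 were thus those of sites with near neighbours, while on chromosome 8 isolated sites had high medians too.

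Along chromosome 14 the isolated sites past the middle of the mapped span (61.4 Mb) had a median HA width of 537 bp and a median Flag width of 556 bp (31 sites), against 479.5 and 482 bp before it (30 sites). The other sites of both antibodies measured 712 and 794 bp past the middle (72 sites) and 525 and 588 bp before it (26 sites). On chromosome 8 the isolated sites measured 699 and 646 bp before the middle at 65.6 Mb (23 sites) and 651.5 and 590.5 bp past it (34 sites). The other sites there measured 644.5 and 628 bp before the middle (44 sites) and 730 and 657.5 bp past it (78 sites). Before the middle of chromosome 8 the medians of isolated sites were thus the higher ones with both antibodies, against the direction over all chromosomes. High medians of isolated sites were thus found in either part of chromosome 8.

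**Figure D5:**
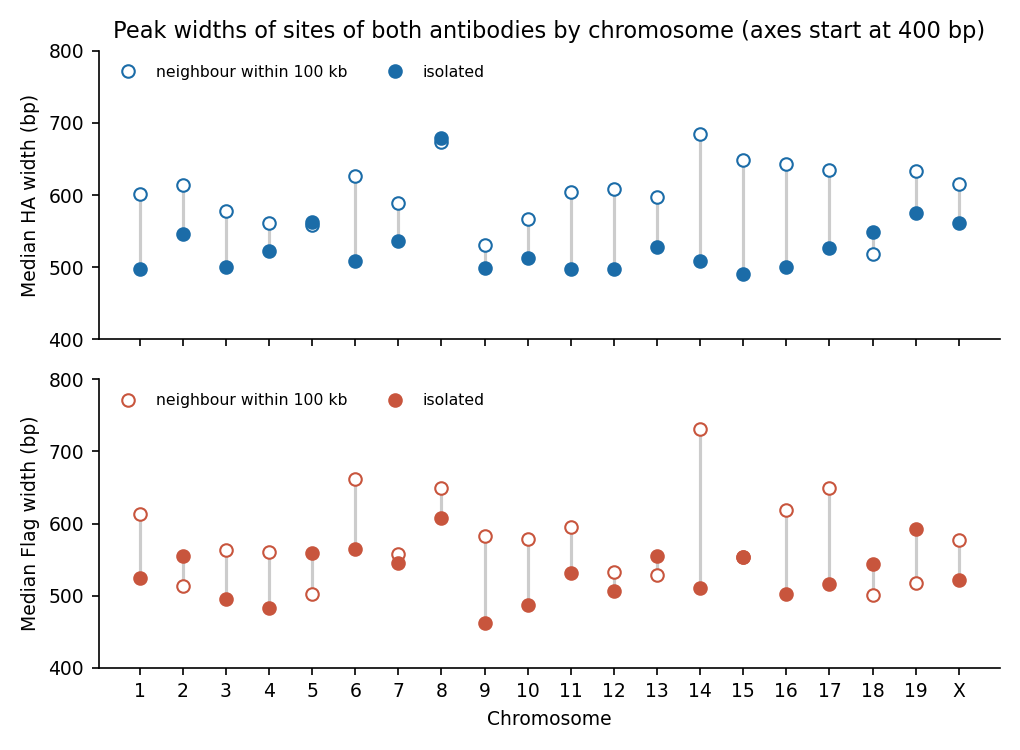
Median HA (top, blue) and Flag (bottom, red) peak widths in bp on each chromosome, with filled points for isolated sites, open points for sites with a neighbour within 100 kb and grey lines joining them; the vertical axes start at 400 bp. Filled points lie below open ones on 17 of 20 chromosomes in HA and 14 in Flag, and chromosome 8 has the highest filled point in each.

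Nothing in the files says how their lines are ordered. The first isolated site of the HA list stood on line 3, at chr14:78687635-78689408. The next stood on lines 5, 7, 12 and 13, at chr9:7633892-7634626, chr1:133786615-133787329, chr13:5802833-5804118 and chr4:138788064-138788971. These 5 were chosen after the lists were seen. In the Flag list the first isolated site stood on line 79, and the first site of both antibodies with a neighbour within 100 kb on line 28. Of the sites of both antibodies in the first 10% of HA lines, 36.0% were isolated (119 of 331, 31.0 to 41.3), against 42.4% in the last 10% (53 of 125, 34.1 to 51.2). In the Flag list these shares were 40.9% (119 of 291, 35.4 to 46.6) and 42.4% (59 of 139, 34.5 to 50.8).

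The width difference kept its direction along the lists, whose order has no known meaning. When each list was divided by line number into 10 equal parts, the isolated sites had the smaller median width in 10 of 10 parts of the HA list, with differences from -123 to -1 bp, and in 10 of 10 parts of the Flag list, with differences from -124 to -14.5 bp. In the first part of the HA list the medians were 649 bp for isolated and 717.5 bp for other sites, and in the last 445 and 482 bp. In part 9 of that list they were nearly equal, at 476 and 477 bp. In the first part of the Flag list they were 649 and 773 bp, and in the last 472 and 505 bp. Among the isolated sites themselves, width fell with line number in each list (Spearman rho = -0.27 in HA and -0.27 in Flag over 1047 sites), and the line numbers of a site in the lists were correlated (Spearman rho = 0.74). These too are descriptions across sites of the same libraries.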

How the data were processed

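Chromatin immunoprecipitation and sequencing gave 1 peak list per antibody. The authors deposited each list as positions with 3 columns (chromosome, start and end, in base pairs) and no peak value, and the submitters' processing notes name mm9 as the build. How reads were aligned and peaks called, with what threshold and use of the input, is not given in the sources used here. Read depth is unknown. How the peak ends were set can change widths and centres, and which weak sites are listed can change which sites count as isolated.

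Starts were converted to 1-based positions for printing. Peaks overlapping by at least 1 bp were merged with Python 3.11.15, numpy 2.4.6 and pandas 2.3.3, and distances count the bases between regions. The counts of union regions and of isolated sites were equal with bedtools 2.31.1. On a simulated chromosome of 2000 regions all 161 planted isolated sites of both antibodies were recovered. Shares have 95% Wilson intervals (scipy 1.17.1) and medians 95% order-statistic intervals, which treat regions as independent. No test was made. Figures used matplotlib 3.10.9.

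The sites and comparisons were chosen with earlier results of these data known. Sites named are the 10 with the best mean width rank, the 5 most remote, the 5 nearest the limit on each side, those with more than 1 peak of an antibody, and the extremes of width and centre distance. Alternatives varied the limit, the distance, the overlap, the chromosomes and the Flag lines. Motifs, start sites and gene lists need an mm9 genome or annotation and were not run.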

Additional observations from a re-analysis of the deposited data

How the results depend on the processing

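The differences of isolated from other sites of both antibodies kept their direction under all 10 alternatives, 9 planned and 1 (sites with 1 peak of each antibody) chosen after seeing the data. Of 80 values in all, 75 stayed inside their interval or, for the count, within the looser bound of 1.5 times. Some alternatives hardly changed the number of sites, so values under them had little room to move. The count was 1050 from centre to centre, 1055 without the first 100 Flag lines and 1043 for single pairs. The share of regions with both antibodies was computed without the filter for 1 peak of each antibody, so under that alternative it could not move. The centre distance and its difference use only single pairs in every setting, so under that alternative they could not move either. The count of isolated sites fell from 1047 to 628 with a limit of 200 kb and to 228 with 500 kb, by construction. It rose to 1404 with 50 kb and to 1516 when only sites of both antibodies counted as neighbours, also by construction. With 500 kb the median HA width was 512 bp and the median centre distance 39.25 bp. Counting only sites of both antibodies as neighbours lowered the share of isolated regions with both to 42.9%. The difference in median centre distance was -11.5 bp, with bounds from -18 to -2.5 bp (from the outer ends of both medians' intervals), which reached 0 without chromosomes 8 and 14 (-17 to 0 bp) and 2.5 bp when only sites of both antibodies counted as neighbours. The planned search for motifs and genes was not run, for want of an mm9 genome. No paired analysis was possible because there is a single library per antibody, and no replicate could be left out. With the read depth unknown, signal too weak to be listed cannot be bounded.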
